A study of Mus musculus with 6 samples.

Results

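The Ikaros family has 5 genes in the mouse, Ikzf1 (Ikaros), Ikzf2 (Helios), Ikzf3 (Aiolos), Ikzf4 (Eos) and Ikzf5 (Pegasus). Every probe whose RefSeq identifier in the scanner files belongs to one of these genes was taken, which gave 12 of the 55371 probes used and 5 of the 22565 genes named on the arrays. A probe was called bright where its mean log2 intensity over the 6 arrays was at least 8. The family had 4 bright probes of 3 genes (Ikzf1, Ikzf2 and Ikzf3), out of 10225 bright probes in all. The cells were TEa cells, CD4+ T cells of C57BL/6 background that carry a transgenic receptor (Vα2+Vβ6+) and the CD45.2 marker. They were transferred into CD45.1+ B6.SJL mice on day -1, the recipients were given a Balb/c heart on day 0, and the transferred cells were sorted from the spleen on day 6. The blockade group held cells labelled Irf4 KO from recipients injected on days 0, 3 and 5 with 200 µg of an antibody to PD-L1 and 200 µg of an antibody to CTLA-4 (9D9). The Irf4 KO IgG group held cells labelled Irf4 KO from recipients given 400 µg of rat IgG on the same days. The WT IgG group held wild-type cells from recipients labelled as treated with rat IgG, with no dose stated. All 3 groups shared the receptor transgene, the heart graft and recipients with lymphocytes of their own. Each group had 2 arrays, labelled as independent experiments and numbered 1 and 2, of which number 2 carries the label of a repeat. An exact two-sided permutation test of 2 arrays against 2 cannot give a p under 0.333. Tests therefore rest on limma models, with the main fit made on the bright probes.

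Ikaros family proteins bind DNA through zinc fingers near their N-terminus and pair with each other through a second set of fingers at the C-terminus. They recruit chromatin complexes such as NuRD, Sin3, CtBP and SWI/SNF, and can repress or activate genes. Ikaros is needed for lymphocyte development, Aiolos is abundant in B cells and in some activated T cells, and Helios and Eos are best known from regulatory T cells, where Eos is a partner of Foxp3. Pegasus is a more divergent member of the family.

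The 6 arrays differed in how many weak probes gave signal. By the scanner software's own call, the probes well above background made up 39.96% and 34.8% of all in blockade cells, 65.8% and 75.2% in Irf4 KO IgG cells, and 37.6% and 40.8% in WT cells. The median intensity of bright probes overlapped between groups, at 1006 and 777 in blockade cells, 1048 and 1611 in Irf4 KO IgG cells, and 948 and 1282 in WT cells. For this reason bright probes were quantile-normalised among themselves, and a change on that scale is relative to the other bright probes. When each array's 75th percentile is used in place of this scale, the median bright probe moves by -1.04 (log2) for Irf4 KO IgG over WT, by 1.09 for blockade over Irf4 KO IgG, and by 0.06 for blockade over WT. With the array median it moves by -2.71, 2.88 and 0.18. Either scale shifts all probes of an array alike. Family values on both are therefore given below minus the shift of the median bright probe, which gives the same number for each. Exceptions are the lower bounds for 2 dim probes and values stated to include the shift. All 6 arrays lay on 1 slide, and each of the 2 slide rows used held an array of every group.

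Irf4, which lies on chromosome 13 (gene identifier 16364) and is the gene of the genotype, read higher on the arrays labelled as its knockout. Its bright probe had intensities of 2071 and 1703 in blockade cells, 2128 and 3073 in Irf4 KO IgG cells, and 673 and 1068 in WT cells. All 4 arrays labelled Irf4 KO lay above both WT arrays. The log2 fold change was 1.44 between Irf4 KO IgG and WT (limma adjusted p = 0.0182) and 1.40 between blockade and WT (limma adjusted p = 0.0211). Whether the probe lies inside the deletion is not given in the sources used here, so it does not check the genotype, and directions below hold for arrays as labelled.

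Within the family, Helios and the 2 Eos probes that were well above background on all 6 arrays had higher intensity on every array labelled Irf4 KO, with or without blockade, than on the WT arrays. The bright Aiolos probe was higher on the same arrays without passing the test, and neither bright probe of Ikaros passed on the bright-probe scale. The other Ikaros probe and the Pegasus probe were dim and were not tested on that scale. Of the 4 bright probes, 1 (Ikzf2) rose and none fell between Irf4 KO IgG and WT, where 2.41% of the 10225 bright probes passed at a limma adjusted p under 0.05, 1.41% of them higher and 0.998% lower. Between blockade and WT 1 (Ikzf2 again) rose and none fell, where 0.724% of bright probes passed, 0.44% higher and 0.284% lower. None of the 4 passed in limma for blockade over Irf4 KO IgG, with 2 at an unadjusted p under 0.05, where 0.9% of bright probes passed, 0.44% higher and 0.46% lower. The groups did not overlap on this scale for 2 of the 4 probes higher and 2 lower in blockade than in WT cells, as for 27.7% and 27.3% of all bright probes. They did not overlap for none higher and 2 lower in blockade than in Irf4 KO IgG cells (34% and 28.3% of all), and for 3 higher and none lower in Irf4 KO IgG than in WT cells (23.2% and 29.2% of all). These 3 comparisons share arrays, so they are not independent of each other.

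**Figure D1:**
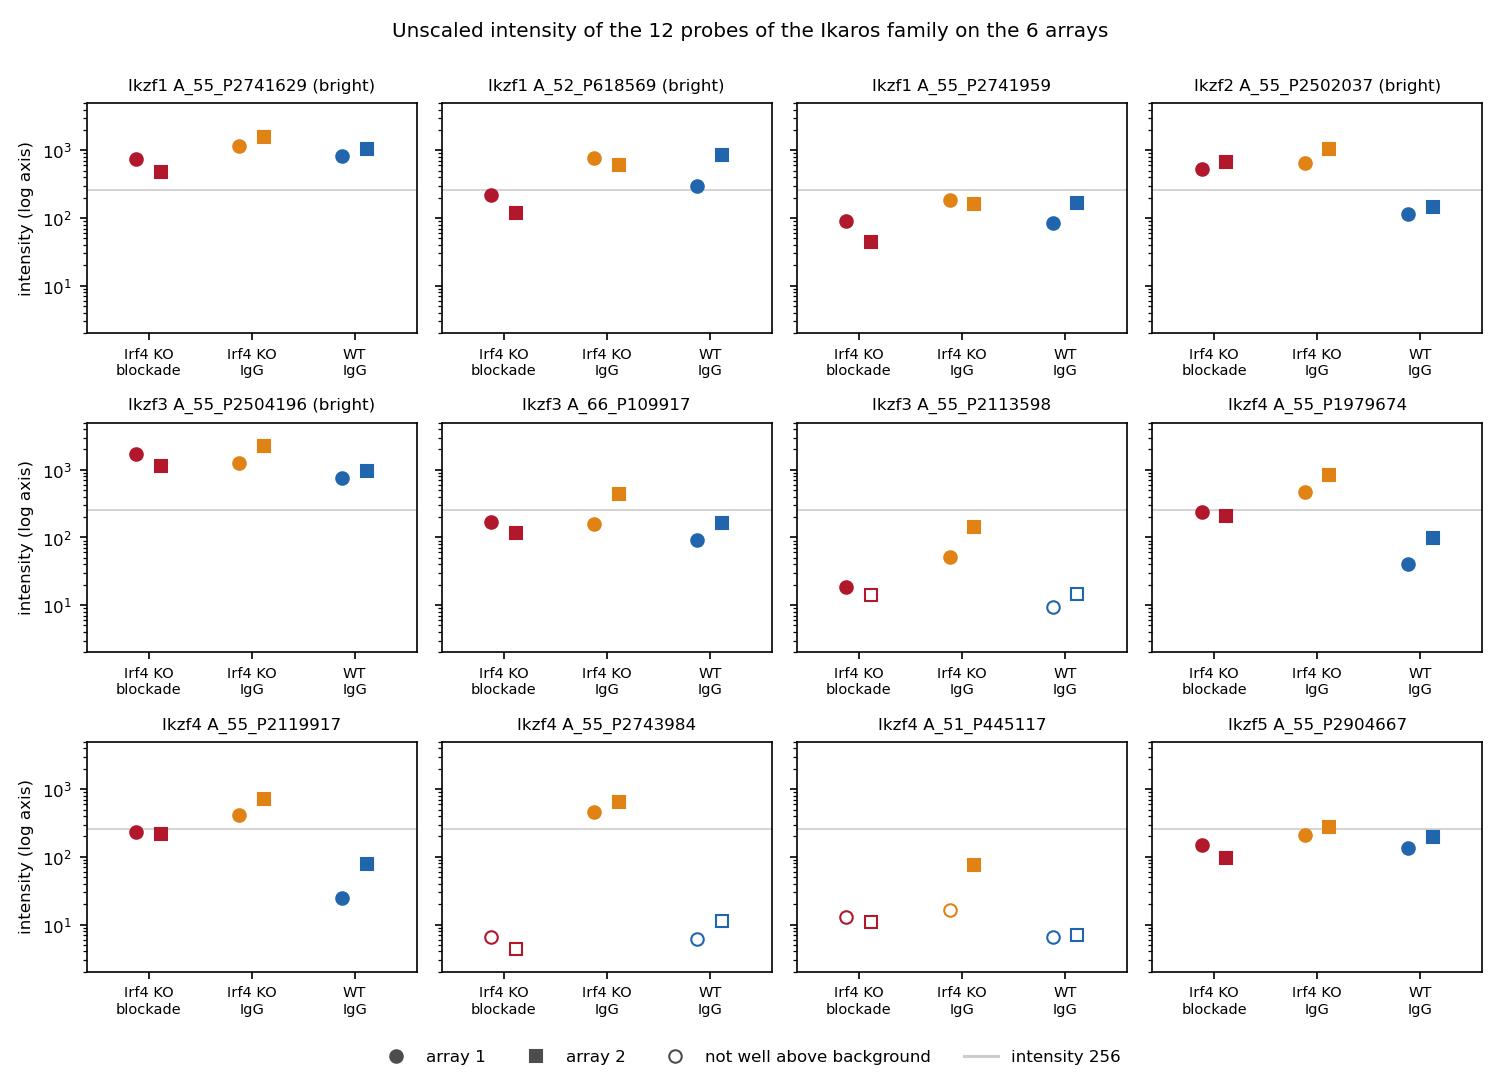
Unscaled intensity (log axis) of each of the 12 Ikaros family probes on the 6 arrays, with blockade, Irf4 KO IgG and WT IgG from left to right; circles are array 1, squares array 2, open symbols are values not well above background, and the grey line marks the intensity of 256 that equals a log2 value of 8. Ikzf2 and Ikzf4 probes A_55_P1979674 and A_55_P2119917 sit above both WT arrays on all 4 arrays labelled Irf4 KO, and Ikzf4 probe A_55_P2743984 is well above background only on the Irf4 KO IgG arrays.

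Ikzf2 (gene identifier 22779, chromosome 1), which encodes Helios, was measured by the single probe A_55_P2502037. Its intensity was 534 and 683 in blockade cells, 659 and 1040.5 in Irf4 KO IgG cells, and 113 and 147 in WT cells. It was well above background on all 6 arrays. Every array labelled Irf4 KO lay above both WT arrays, while the blockade and Irf4 KO IgG arrays overlapped. The probe counted as bright through the arrays labelled Irf4 KO, since both WT values were under 256, so its place among the bright probes is no support for the difference. On the bright-probe scale it averaged 9.54 ± 0.51 in blockade cells, 9.38 ± 0.04 in Irf4 KO IgG cells and 7.19 ± 0.01 in WT cells (log2, SD, n = 2 each).

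Helios signal was 4.55-fold higher in Irf4 KO IgG cells than in WT cells (a log2 difference of 2.19 with an SE of 0.24, limma adjusted p = 0.0239). On the 75th percentile and array median scales the log2 difference relative to the median bright probe was 2.52. It ranked 38 from the top of the 10225 bright probes in that comparison. In blockade cells it was 5.09-fold higher than in WT cells (a log2 difference of 2.35 with an SE of 0.24, limma adjusted p = 0.0246), ranking 18 from the top, and the sign was the same under all 20 other settings. Between blockade and Irf4 KO IgG cells it differed by 0.16 (log2, SE 0.24, limma adjusted p = 0.677), less than the spread between the blockade arrays. Within slide rows the log2 difference between blockade and WT was 2.72 and 1.98, and between Irf4 KO IgG and WT it was 2.17 and 2.21.

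The size of the Helios difference was steadier than its call. Leaving out either array of Irf4 KO IgG or of WT gave log2 fold changes of 2.15 to 2.24 between these groups, with limma adjusted p values of 0.0531 to 0.141. Leaving out either array of blockade or of WT gave 1.94 to 2.74 between those groups, with limma adjusted p values of 0.0648 to 0.136.

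Ikzf4 (gene identifier 22781, chromosome 10), which encodes Eos, had 4 probes, and none was bright. Probe A_55_P1979674 read 238 and 210 in blockade cells, 476 and 840 in Irf4 KO IgG cells, and 40.7 and 98.6 in WT cells. Probe A_55_P2119917 read 237 and 219 in blockade cells, 419 and 721 in Irf4 KO IgG cells, and 25.1 and 77.7 in WT cells. Both probes gave the same order, with WT lowest, blockade between and Irf4 KO IgG highest, and the 3 groups did not overlap in unscaled intensity. How many other weak probes separate the groups in this way was not counted. The median intensity of all probes was also highest in Irf4 KO IgG cells, at 46.5 and 76.6. It was 6.7 and 5.2 in blockade cells and 7.4 and 9.1 in WT cells. For probes A_55_P1979674 and A_55_P2119917 alike, WT array 1 was the dimmest.

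Both of these Eos probes entered a fit in which the minimum for a bright probe was a mean log2 intensity of 7, and they too entered it through the arrays labelled Irf4 KO. There A_55_P1979674 rose by 2.71 (log2, SE 0.22, limma adjusted p = 0.0136) and A_55_P2119917 by 2.91 (SE 0.30, limma adjusted p = 0.0223) between Irf4 KO IgG and WT, a comparison in which 1.63% of 13155 probes passed as higher. Between blockade and WT A_55_P1979674 rose by 1.95 (SE 0.22, limma adjusted p = 0.0417), where 0.342% of probes passed as higher, and A_55_P2119917 differed by 2.40 (SE 0.30, limma adjusted p = 0.0535). Neither passed for blockade over Irf4 KO IgG, where 0.897% of probes passed, at -0.76 for A_55_P1979674 (limma adjusted p = 0.111) and -0.51 for A_55_P2119917 (limma adjusted p = 0.314). On the other scales, relative to the median bright probe, these differences were -1.04 and -0.81. With the 75th percentile and its shift left in, they were 0.05 (limma adjusted p = 0.893) and 0.28 (limma adjusted p = 0.611). Their sign thus depended on the scale. With all probes scaled by the bright-probe median, the median of the 34988 probes itself moved by -0.99 in this comparison. Without WT array 1 the difference between Irf4 KO IgG and WT was 2.40 and 2.43 for the same pair of probes, with a limma adjusted p of 0.0813 for each. That call was also lost without either blockade array, with limma adjusted p values of 0.0691 to 0.0819 over both probes, and for A_55_P2119917 without Irf4 KO IgG array 2 (limma adjusted p = 0.0525). The call of A_55_P1979674 between blockade and WT was lost without either blockade array (limma adjusted p = 0.246 and 0.342), and equally without either WT array (limma adjusted p = 0.123 and 0.099). With the slide row as a block it was lost too (limma adjusted p = 0.0859).

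A further Eos probe behaved otherwise. A_55_P2743984 read 6.6 and 4.3 in blockade cells, 454 and 643 in Irf4 KO IgG cells, and 6.2 and 11.2 in WT cells. Both Irf4 KO IgG values were well above background, and none of the blockade or WT values was. Irf4 KO IgG signal was at least 12.4-fold higher than WT with the 75th percentile (limma adjusted p = 0.0058) and at least 24.2-fold higher with all probes scaled by the bright-probe median (limma adjusted p = 0.00174). Bounds set the brighter group against the dimmest signal that is well above background, or the probe's own where higher. The p values printed beside bounds are those of the measured difference, not of the bound. On these scales 29.4% and 40.3% of 34988 probes passed as higher between Irf4 KO IgG and WT. Blockade signal was at least 10.97-fold lower than Irf4 KO IgG with the 75th percentile (limma adjusted p = 0.00582) and at least 21.9-fold lower with the bright-probe median (limma adjusted p = 0.00173), where 28.8% and 41.6% of probes passed as lower.

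Signal on the Irf4 KO IgG arrays alone was common among weak probes, but rarely this strong. Of 29707 probes that were not well above background on any blockade or WT array, 10979 (37.0%) were well above it on Irf4 KO IgG arrays 1 and 2. Only 25 of the 29707 (0.0842%) read at least 454 on both. That cut is the dimmer Irf4 KO IgG value of this Eos probe, so the probe is among the 25 by construction. The 3 Eos probes with signal thus disagreed on the blockade arrays, where A_55_P1979674 and A_55_P2119917 were well above background and A_55_P2743984 was not. The remaining probe, A_51_P445117, read 12.7 and 10.8 in blockade cells, 16.5 and 76.5 in Irf4 KO IgG cells, and 6.6 and 7.0 in WT cells, and only the 76.5 of Irf4 KO IgG array 2 was well above background.

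**Figure D2:**
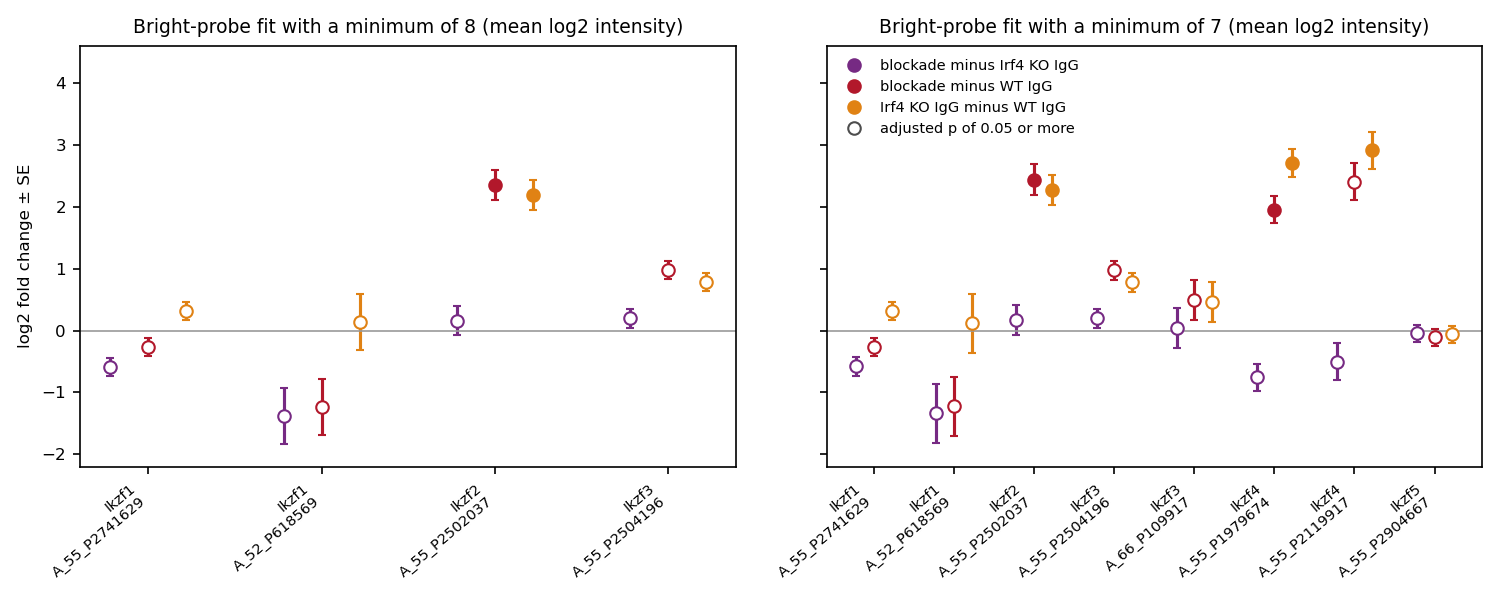
Log2 fold change with its standard error (bars) for the Ikaros family probes in the bright-probe fit with a minimum mean log2 intensity of 8 (left panel) and of 7 (right panel), with blockade minus Irf4 KO IgG, blockade minus WT IgG and Irf4 KO IgG minus WT IgG from left to right for each probe and filled symbols for a limma adjusted p under 0.05. Ikzf2 lies at 2.35 and 2.19 against WT, Ikzf4 probe A_55_P1979674 at 1.95 and 2.71, and Ikzf5 near 0, on a scale relative to the other bright probes.

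Ikzf3 (gene identifier 22780, chromosome 11), which encodes Aiolos, had the bright probe A_55_P2504196. Its intensity was 1730 and 1130 in blockade cells, 1260 and 2272 in Irf4 KO IgG cells, and 757 and 976 in WT cells. All 4 arrays labelled Irf4 KO exceeded both WT arrays, and blockade and Irf4 KO IgG overlapped. The log2 difference between blockade and WT was 0.97, or 1.97-fold (SE 0.15, limma adjusted p = 0.0571), just outside the threshold, and 5 of 21 other settings put it inside as higher. Between Irf4 KO IgG and WT it was 0.78 (SE 0.15, limma adjusted p = 0.0631) and, relative to the median bright probe on the other scales, 0.82. The value for blockade over Irf4 KO IgG was 0.20 (SE 0.15, limma adjusted p = 0.413).

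The other Aiolos probes were dim. A_66_P109917 read 169 and 116 in blockade cells, 160 and 434 in Irf4 KO IgG cells, and 92.5 and 163 in WT cells, so that all groups overlapped. A_55_P2113598 read 18.3 and 14.2 in blockade cells, 52.1 and 142 in Irf4 KO IgG cells, and 9.4 and 14.7 in WT cells. Of these values, both of Irf4 KO IgG and that of blockade array 1 were well above background, and neither of WT was. Irf4 KO IgG signal of that probe was at least 1.97-fold higher than WT with the 75th percentile (limma adjusted p = 0.0129) and at least 3.85-fold higher with the bright-probe median (limma adjusted p = 0.0033). On these scales 29.4% and 40.3% of 34988 probes passed as higher, and the probe ranked 9907 from the top.

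Ikzf1 (gene identifier 22778, chromosome 11), which encodes Ikaros, had 3 probes, and its lowest values fell on the blockade arrays. A_55_P2741629 read 755 and 484 in blockade cells, 1150 and 1579 in Irf4 KO IgG cells, and 818 and 1034 in WT cells. A_52_P618569 read 220 and 118 in blockade cells, 784 and 618 in Irf4 KO IgG cells, and 294 and 848 in WT cells. Both blockade arrays lay below all other arrays for each of these bright probes. The dim probe A_55_P2741959 read 91.0 and 45.0 in blockade cells, 188 and 164 in Irf4 KO IgG cells, and 83.3 and 169 in WT cells, where blockade and WT overlapped.

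Neither bright Ikaros probe passed the test, and the dim one was too weak to enter the bright-probe fits. Between blockade and Irf4 KO IgG the log2 difference was -0.58 for A_55_P2741629 (SE 0.14, limma adjusted p = 0.0835) and -1.39 for A_52_P618569 (SE 0.45, limma adjusted p = 0.126). On the other scales, relative to the median bright probe, they were -0.69 and -1.65. On the bright-probe scale the groups did not overlap for either probe, as for 28.3% of all bright probes with blockade lower. Between blockade and WT the differences were -0.27 (limma adjusted p = 0.377) for A_55_P2741629 and -1.24 (limma adjusted p = 0.229) for A_52_P618569, negative under every other setting tried. These groups did not overlap on the bright-probe scale either, as for 27.3% of all bright probes with blockade lower. Between Irf4 KO IgG and WT they were 0.32 (limma adjusted p = 0.258) and 0.14 (limma adjusted p = 0.87), or 0.39 and 0.32 relative to the median bright probe on the other scales. The WT arrays differed by 1.04 on the log2 scale for A_52_P618569, which had the largest SE of the 4 bright probes.

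Ikzf5 (gene identifier 67143, chromosome 7), which encodes Pegasus, had the dim probe A_55_P2904667. It read 150 and 94.8 in blockade cells, 210 and 273 in Irf4 KO IgG cells, and 135 and 197 in WT cells. Blockade and WT overlapped. In the fit with a minimum of 7 its log2 difference was -0.11 for blockade over WT (limma adjusted p = 0.726), -0.05 for blockade over Irf4 KO IgG (limma adjusted p = 0.84) and -0.06 for Irf4 KO IgG over WT (limma adjusted p = 0.811). On the other scales, relative to the median bright probe, it was -0.54 for blockade over Irf4 KO IgG and 0.40 for Irf4 KO IgG over WT.

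Ratios of family members within the same array do not depend on any factor shared by all probes of an array. They can still carry a difference between arrays that varies with intensity. Scaled by the bright-probe median, the median detected probe moved by 0.88 for Irf4 KO IgG over WT. For blockade over Irf4 KO IgG it moved by -0.99. The Eos and Pegasus probes used were dim, and the part of this lift of weak probes in the ratios was not tested. The ratios show unequal change in the signal of the members and do not show which of them changed. Helios over Ikaros, unscaled and set against the WT mean, stood at 2.33 and 3.33 (log2) in blockade cells, 2.03 and 2.23 in Irf4 KO IgG cells, and -0.02 and 0.02 in WT cells. Helios over Pegasus stood at 2.16 and 3.19 in blockade cells, 1.99 and 2.27 in Irf4 KO IgG cells, and 0.08 and -0.08 in WT cells. Helios over Aiolos stood at 1.04 and 2.01 in blockade cells, 1.80 and 1.61 in Irf4 KO IgG cells, and -0.01 and 0.01 in WT cells. In each of these ratios both groups labelled Irf4 KO lay above WT without overlap. Helios and Eos were set on top of the ratios after the data were seen. Ratios with the same top probe also share its values, so their separation from WT is no further support for a difference. How many other probe pairs separate in this way was not counted.

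Eos over Ikaros stood at 2.20 and 2.65 in blockade cells, 2.59 and 2.95 in Irf4 KO IgG cells, and -0.47 and 0.47 in WT cells, again without overlap against WT. Eos over Aiolos separated all 3 groups, at 0.90 and 1.33 in blockade cells, 2.36 and 2.33 in Irf4 KO IgG cells, and -0.45 and 0.45 in WT cells. Helios over Eos stood at 0.14 and 0.68 in blockade cells, -0.56 and -0.72 in Irf4 KO IgG cells, and 0.45 and -0.45 in WT cells. The Irf4 KO IgG arrays were lowest in this ratio, and the blockade arrays overlapped WT.

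**Figure D3:**
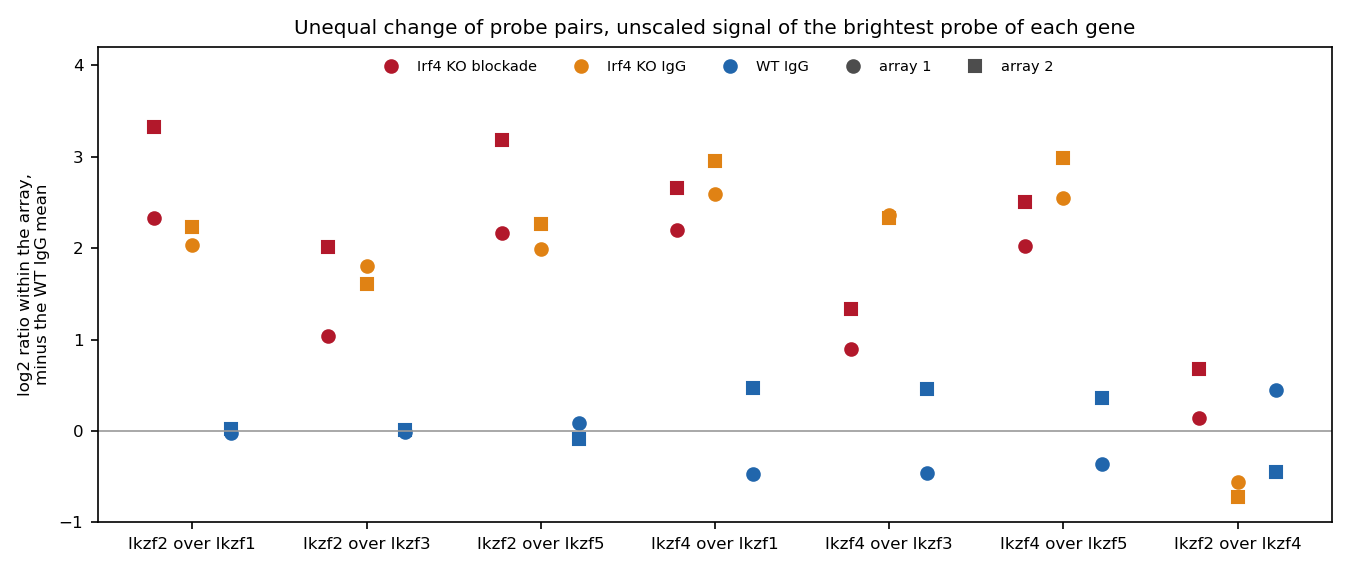
Log2 ratio of unscaled intensity between the brightest probes of pairs of Ikaros family genes within each array, minus the mean of the WT IgG arrays (vertical axis), with blockade, Irf4 KO IgG and WT IgG from left to right for each pair. Ratios with Ikzf2 or Ikzf4 on top of Ikzf1, Ikzf3 or Ikzf5 lie between 0.90 and 3.33 on the arrays labelled Irf4 KO and between -0.47 and 0.47 on the WT arrays.

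Genes of the family's partners, targets and cell types were read from lists, each gene by its brightest bright probe. The lists other than the family held 67 genes with a bright probe. Of these 7 (10.4%) passed for Irf4 KO IgG over WT, all higher, beside 2.41% of all bright probes, and leaving out each array in turn gave 0 to 4. For blockade over WT 2 (2.99%) passed, beside 0.724%, with 0 to 4 on leaving out arrays. The lists were chosen with earlier results of these data known, so nothing is read from these shares. Of 22 genes of the NuRD, Sin3, CtBP and SWI/SNF complexes, 17 had a bright probe, and 1 rose and none fell between Irf4 KO IgG and WT. That gene was Mta1, a NuRD subunit (log2 fold change 1.14, SE 0.17, limma adjusted p = 0.0468), and it did not pass when any 1 of the 6 arrays was left out. None passed in the comparisons of blockade with WT or with Irf4 KO IgG cells. The median log2 difference of the 17 was -0.02 for blockade over WT, -0.14 for blockade over Irf4 KO IgG and 0.12 for Irf4 KO IgG over WT, beside 0.00, 0.03 and -0.02 over all bright probes. Chd4, the main NuRD ATPase, differed by -0.26 between blockade and WT (limma adjusted p = 0.348) and by 0.12 between Irf4 KO IgG and WT (limma adjusted p = 0.624).

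Of the 5 genes of the cereblon ubiquitin ligase, through which lenalidomide leads to the breakdown of Ikaros and Aiolos in human cells, 4 had a bright probe and none passed in any comparison. Crbn, the substrate receptor, differed by 0.12 between blockade and WT (limma adjusted p = 0.745) and by -0.13 between Irf4 KO IgG and WT (limma adjusted p = 0.684).

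Of 20 genes reported as bound or regulated by Ikaros family factors, 7 had a bright probe. Between Irf4 KO IgG and WT 1 rose and none fell, where 1.41% of all bright probes passed as higher. The gene was Bcl2, which encodes a survival protein (log2 fold change 1.23, SE 0.19, limma adjusted p = 0.0468). This call too was lost when any 1 of the 6 arrays was left out. No gene of the list passed in the comparisons with blockade. Il7r, the IL-7 receptor chain, had the largest difference of the list against WT in blockade cells, at -1.51 (SE 0.50, limma adjusted p = 0.196). The median of the 7 was 0.14 for blockade over WT, -0.13 for blockade over Irf4 KO IgG and 0.39 for Irf4 KO IgG over WT. Over all bright probes these medians were 0.00, 0.03 and -0.02. Il2, a gene that Ikaros and Aiolos are known to silence, had no bright probe.

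Regulatory T cell markers were examined because Helios and Eos are known from those cells, and neither gene is on the list used. Of 15 markers, 7 had a bright probe. Between Irf4 KO IgG and WT 3 rose and none fell, where 1.41% of all bright probes passed as higher. They were Tnfrsf9, a costimulatory receptor (log2 fold change 2.81, limma adjusted p = 0.0398), Nrp1, a surface receptor (2.06, limma adjusted p = 0.0468), and Gpr83, a G protein-coupled receptor (1.56, limma adjusted p = 0.0493). When each array was left out in turn, Tnfrsf9 passed only without WT array 2, Nrp1 only without WT array 1, and Gpr83 never, and with the slide row as a block none of the 3 passed (limma adjusted p = 0.055 to 0.0713). Between blockade and WT none passed, and the nearest was Nrp1 at 2.0 (limma adjusted p = 0.0601). All 7 values were above 0 in both comparisons with WT. Their medians were 1.06 between blockade and WT and 1.35 between Irf4 KO IgG and WT, beside 0.00 and -0.02 over all bright probes. A marker could count as bright through the arrays labelled Irf4 KO, and the part of this in the shared sign was not tested. None passed for blockade over Irf4 KO IgG, with a median of -0.09 beside 0.03 over all bright probes.

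Foxp3, the defining factor of regulatory T cells, was weak throughout. It read 35.4 and 30.0 in blockade cells, 41.9 and 185 in Irf4 KO IgG cells, and 16.0 and 21.9 in WT cells, where the 16.0 was not well above background. All 4 arrays labelled Irf4 KO lay above both WT arrays in unscaled intensity. How many other weak probes do so was not counted, and the median intensity of all probes was highest on the Irf4 KO IgG arrays. In such sorted populations a change in the share of cells of a type and a change in RNA per cell cannot be told apart. The part of a change in regulatory T cell content in the Helios and Eos results was not tested.

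The labelled cell type was present on every array. Cd3e read between 28175 and 49031 and Cd4 between 9193 and 22895 over the 6 arrays, and none of the 16 T cell identity genes passed in any comparison. On the bright-probe scale all 16 of these genes had values below 0 for blockade over Irf4 KO IgG, with a median of -0.29 beside 0.03 over all bright probes. Markers of B cells read higher on the Irf4 KO IgG arrays. Over all probes, 65.8% and 75.2% were well above background in Irf4 KO IgG cells. The shares were 39.96% and 34.8% in blockade cells and 37.6% and 40.8% in WT cells. Of 15 B cell markers with a probe, 3 and 4 were well above background in blockade cells, 13 and 15 in Irf4 KO IgG cells, and 3 and 4 in WT cells. Their summed intensity was 500 and 503 in blockade cells, 1501 and 7526 in Irf4 KO IgG cells, and 281 and 347 in WT cells. Cd79a, a chain of the B cell receptor, was not well above background on any blockade or WT array, and read 21.0 and 74.4 in Irf4 KO IgG cells. Of all probes not well above background on any blockade or WT array, 37.0% were well above it on both Irf4 KO IgG arrays.

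Markers of NK and myeloid cells differed among themselves. Ncr1, which marks NK cells, and Lyz2, which marks macrophages and monocytes, were well above background in Irf4 KO IgG cells only. Such a pattern was common among weak probes, at the 37.0% given above. S100a8, a neutrophil gene, read 185 and 1100 in blockade cells, 490 and 15377 in Irf4 KO IgG cells, and 92.2 and 169 in WT cells. Csf1r, the receptor of macrophage colony-stimulating factor, was well above background on every array, at 1057 and 992 in blockade cells, 1296 and 1177 in Irf4 KO IgG cells, and 1230 and 932 in WT cells. The counts that follow also stand beside the shares of all probes given above. Of the 15 monocyte, macrophage and neutrophil markers with a probe, 9 and 10 were well above background in blockade cells, 14 and 14 in Irf4 KO IgG cells, and 8 and 7 in WT cells. Their summed intensity did not order the groups, at 57441 and 53084 in blockade cells, 40482 and 129620 in Irf4 KO IgG cells, and 74146 and 62175 in WT cells. Of the 6 with a bright probe, 3 were above 0 and 3 below in each comparison. No bright gene of the B cell, plasma cell, monocyte with macrophage and neutrophil, or erythroid and platelet lists passed in any comparison, and the B cell list had no bright gene. Of the dendritic cell markers 3 had a bright probe, with 2 above 0 and 1 below between blockade and WT. All 3 were above 0 between Irf4 KO IgG and WT. Only Irf8, also a T cell gene, passed, and it rose in both comparisons with WT (1.72 in blockade cells, limma adjusted p = 0.0399, and 1.5 in Irf4 KO IgG cells, limma adjusted p = 0.0393). Of all bright probes 0.44% and 1.41% passed as higher in these comparisons. Of the CD8 T and NK cell markers 4 had a bright probe, all 4 above 0 between blockade and WT. Between Irf4 KO IgG and WT 3 were above 0 and 1 below. Only Eomes, a factor of memory and effector T cells, passed, and it rose likewise (2.18 in blockade cells, limma adjusted p = 0.014, and 2.94 in Irf4 KO IgG cells, limma adjusted p = 0.0103). With the slide row as a block Irf8 passed in neither comparison (limma adjusted p = 0.0817 in blockade cells and 0.0653 in Irf4 KO IgG cells). Eomes passed in both (limma adjusted p = 0.0476 and 0.0332). Leaving out arrays gave Irf8 limma adjusted p values of 0.0277 to 0.286 in blockade cells and 0.0374 to 0.142 in Irf4 KO IgG cells, and Eomes 0.0156 to 0.147 in blockade cells and 0.014 to 0.0541 in Irf4 KO IgG cells. Globin genes read higher on the arrays of both groups labelled Irf4 KO. The summed intensity of the 9 erythroid and platelet markers with a probe was 11545 and 7081 in blockade cells, 1839 and 55584 in Irf4 KO IgG cells, and 244 and 806 in WT cells. Hba-a1, a haemoglobin chain, differed by 4.81 between blockade and WT (limma adjusted p = 0.188) and by 4.52 between Irf4 KO IgG and WT (limma adjusted p = 0.167). The part of erythroid cells in the Helios and Eos results was not tested. The part of other cells in the signal of Ikzf4 probe A_55_P2743984 and the dim Ikzf3 probes on the Irf4 KO IgG arrays was not tested.

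**Figure D4:**
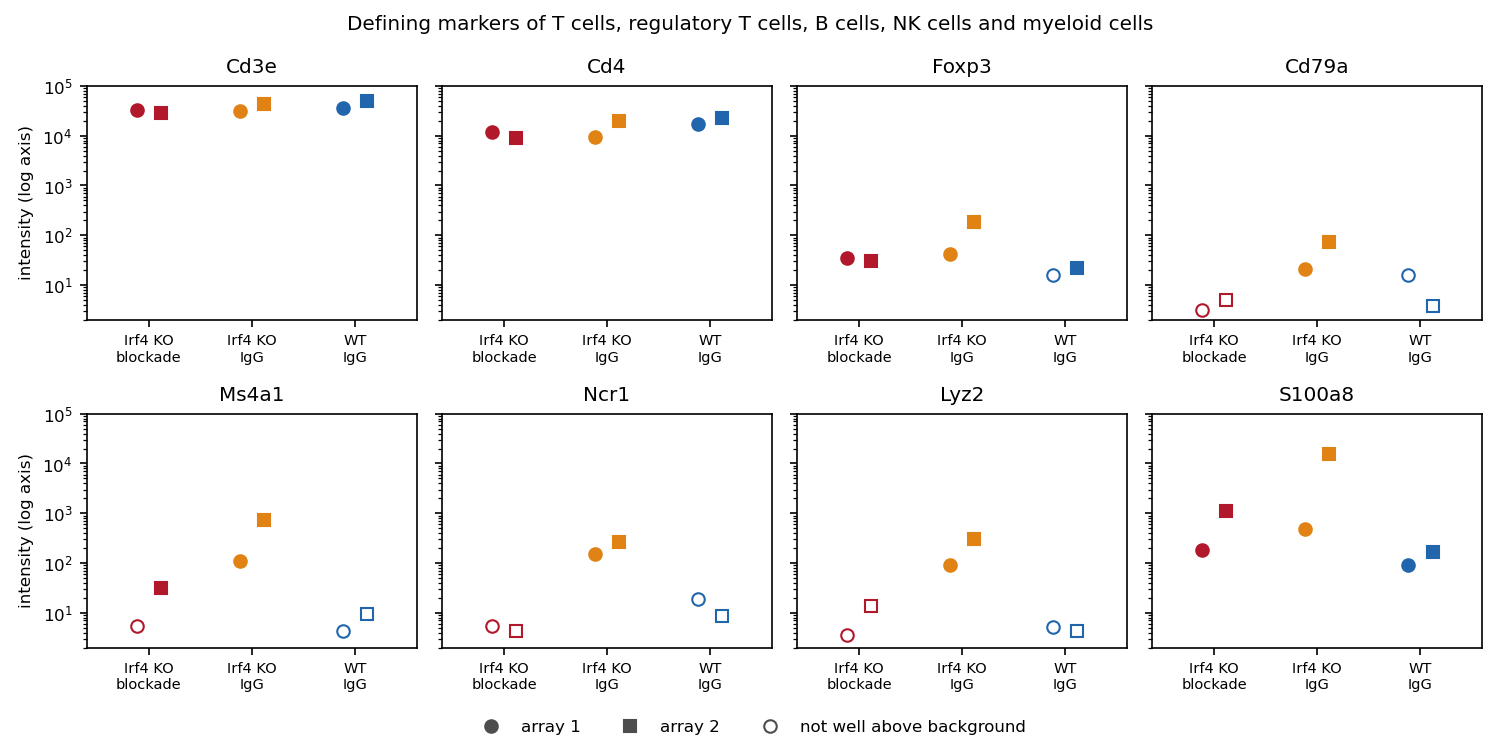
Unscaled intensity (log axis) of 8 marker genes on the 6 arrays, with blockade, Irf4 KO IgG and WT IgG from left to right; circles are array 1, squares array 2, and open symbols are values not well above background. Cd3e and Cd4 are high on all arrays, Foxp3 lies between 16.0 and 185, and Cd79a, Ncr1 and Lyz2 are well above background only on the Irf4 KO IgG arrays. Of all probes not well above background on any blockade or WT array, 37.0% are well above it on both Irf4 KO IgG arrays.

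The profile of Helios over the 6 arrays was compared with those of 8297 other bright probes of named genes, by the root mean square distance between mean-centred log2 values. Of the family's brightest bright probes, only that of Helios had a log2 fold change of at least 1 in size in a comparison, and the search was made for it alone. The nearest were Ptprs (0.26), which encodes a receptor tyrosine phosphatase, Itm2a (0.28), a membrane protein, Ecm1 (0.29), an extracellular matrix protein, Rasgef1a (0.29), an exchange factor of the Ras family, and Fut7 (0.30), a fucosyltransferase that makes selectin ligands. Their log2 differences ranged from 1.84 to 2.48 between blockade and WT and from 1.68 to 2.01 between Irf4 KO IgG and WT. These genes were chosen for their likeness to Helios over the same arrays, so that their differences are a description.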

How the data were processed

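Gene expression was measured on 6 one-colour Agilent mouse arrays. Per the file headers, the authors read the spots with Agilent Feature Extraction 11.0.1.1, although version 9.1 is named in the submitters' processing notes. Values in the deposited scanner files are processed signals, that is linear intensity after background subtraction, with no scaling between arrays. The deposited value table holds this signal divided by 1 number per array, within a tolerance of 0.001 for at least 99.6% of probes, and was used as an alternative. Of 56605 probes, 1234 lacked a usable spot on at least 1 array and were not used. From the deposited intensity, log2 values were taken and the spots of each probe averaged, and probes were named through RefSeq identifiers (58.3% matched). Array number and signal over background limit the precision. The headers name another genome build than the reference, so no positions are given.

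Bright probes (mean log2 of at least 8) were quantile-normalised and the 3 groups fitted together with limma 3.58.1 in R 4.3.3 (lmFit, eBayes), Benjamini-Hochberg adjusted over all bright probes, with a threshold of 0.05. The fit was tested on simulated data. Genes named are the family, Irf4, list members that passed and others by p, and the 5 nearest profiles. Il2 and Chd4 and the defining marker genes are named for their role. The members, lists and settings were chosen with earlier results of these data known. Normexp used the median signal, since the files hold no mean signal. The fit scaled by the bright-probe median over all probes, the slide row as a block, the within-array ratios, values relative to the median bright probe and the repeats of the fit with a minimum of 7 were chosen after seeing the data. Groups share the numbers 1 and 2, and deviations of same-numbered arrays correlated at 0.04, -0.18 and 0.05 between pairs of groups, so numbers were not taken as pairs.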

Additional observations from a re-analysis of the deposited data

How the results depend on the processing

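The Ikzf2 rise against WT passed in 15 of 20 other settings for Irf4 KO IgG and in 12 of 20 for blockade. Scaling by the 75th percentile and by the array median moves the median bright probe by -1.04 and -2.71 for Irf4 KO IgG against WT and by 1.09 and 2.88 for blockade against Irf4 KO IgG, and the sign turns and passes of family probes on these 2 scales below carry that shift. Relative to it each bright family probe had the sign of its value on the bright-probe scale. Taking out the shift sets each probe against the median bright probe again, so this likeness is no separate check of these 2 scales. For Irf4 KO IgG against WT the array median gave -0.19 for Ikzf2 (2.52 relative to the shift) and leaving out arrays gave 2.13 to 2.24. For blockade against WT the log2 fold change was 2.58 on scaling by the 75th percentile, 2.70 by the array median, 2.35 with the slide row as a block (adjusted p = 0.056), 2.54 with all probes scaled by the bright-probe median, and 1.94 to 2.74 leaving out arrays, and these did not pass except without an Irf4 KO IgG array. For blockade against Irf4 KO IgG Ikzf2 stood at 1.1 on scaling by the 75th percentile and 2.89 by the array median, about the size of the shift (0.01 relative to it), and ranged from -0.19 to 0.52 leaving out arrays, the lowest without blockade array 2. Ikzf3 moved to -0.22 and -1.89 for Irf4 KO IgG against WT with these scales (0.82 relative to the shift), and stood at 0.74 with the bright-probe median over all probes, where its adjusted p (0.04998) was at the threshold. For blockade against Irf4 KO IgG it stood at 1.28 and 3.07 with the same scales (0.19 relative to the shift). For blockade against WT it passed with median scaling (1.02), cyclic loess (1.02), normexp (0.91), a minimum of 9 (0.98), and trend with robust (0.97). Ikzf1 values for Irf4 KO IgG against WT were smaller in size than the shift on both scales (by the 75th percentile -0.65 and -0.72 for A_55_P2741629 and A_52_P618569, and by the array median -2.32 and -2.39, or 0.39 and 0.32 relative to it), and A_52_P618569 ranged from -0.38 to 0.66 leaving out arrays. For blockade against Irf4 KO IgG, Ikzf1 A_55_P2741629 stood at 0.39 and 2.18 with these scales (-0.69 relative to the shift) and A_52_P618569 at 1.23 with the array median (-1.65 relative to it). Counts of probes that passed, for Irf4 KO IgG against WT, blockade against Irf4 KO IgG and blockade against WT, were 246, 92 and 74. On scaling all detected probes they were 19696, 19830 and 0 by the 75th percentile (2795 of the last at an unadjusted limma p under 0.05), 22968, 22450 and 0 by the array median (3214 of the last), and 14439, 15031 and 0 by the bright-probe median (2830 of the last). They were 429, 939 and 148 with bright probes scaled by their median, 5, 0 (2801 at an unadjusted limma p under 0.05) and 131 on the 4 arrays compared, and 94, 0 (3058 likewise) and 27 with the slide row as a block. Cyclic loess gave 27 and 160 for the comparisons with blockade, and a minimum of 9 gave 90 and 17 for those with Irf4 KO IgG. With 1 probe a gene those 2 gave 160 and 28. For blockade against WT normexp gave 124 and trend with robust 120. Leaving out arrays gave 5 to 151, 0 to 405 and 0 to 128, with the most calls in the first pair of comparisons without Irf4 KO IgG array 2. With the replicate block they were 68 and 60 for the comparisons with Irf4 KO IgG, the block changed no call of a family probe, and the arrays share only a number. Members of the other lists that passed were 7, 0 and 2. On those 3 scales they were 67, 65 and 0, 77, 84 and 0, and 48, 31 and 0. Leaving out arrays gave 0 to 4, 0 to 3 and 0 to 4. For Irf4 KO IgG against WT they were 2 with a minimum of 9, 0 on the 4 arrays compared, 2 with the replicate block and 1 with the slide row. For blockade against WT they were 1 with a minimum of 7, 4 on the 4 arrays compared, 1 with the replicate block and 1 with the slide row, and median scaling gave 2 for blockade against Irf4 KO IgG. Fewer arrays or probes enter the fits without an array, on 4 arrays, with a minimum of 9 and with 1 probe a gene, and for other settings the cause was not tested. The slide as a block was not run, since all arrays share 1 slide. Signal limits Ikzf4 A_51_P445117, which entered no fit. Dim Ikzf1, Ikzf3 (A_66_P109917) and Ikzf5 probes differed in sign between scales for Irf4 KO IgG against WT, and stood at 0.41, 0.94 and 0.40 relative to the shift.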
